A study of Mus musculus with 3 samples.

Results

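The genes that let T cells leave the thymus or hold them there were followed through thymic invariant natural killer T (iNKT) cells, the lipid-reactive T cells that bind CD1d tetramer. The set comprised 5 genes matched by symbol, S1pr1, S1pr4, Klf2, Klf6 and Cd69, of the 30406 gene identifiers that the libraries share. S1pr1 and S1pr4 encode receptors for sphingosine-1-phosphate (S1P), a lipid that is abundant in blood and kept low in thymic tissue. Mature thymocytes that carry S1P1, the product of S1pr1, follow this gradient out of the organ. Klf2 is a zinc-finger transcription factor that drives S1pr1 transcription in mature thymocytes, Klf6 is an early-response factor of the same family, and the surface protein CD69 binds S1P1 and removes it from the membrane.

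Each of 3 conditions was measured as 1 droplet scRNA-seq library of pooled thymi. The C57BL/6 library came from mice of 7 weeks that had received no bone marrow transplantation (BMT). The BM only library (non-GVHD) came from F1 recipients (C57BL/6 x BALB/c) that were lethally irradiated and given T cell-depleted C57BL/6 marrow, 16 weeks old and 9 weeks after BMT. The BM + Spl library (GVHD) came from recipients of the same age and interval that had also been given C57BL/6 splenic cells and developed chronic graft-versus-host disease. Donor-derived, host and transferred splenic cells cannot be told apart in these counts. In each case CD8+ cells were removed with beads before thymocytes positive for TCRβ and CD1d tetramer and negative for CD24 and NK1.1 were sorted, so NKT1 cells that display NK1.1 are outside these data.

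The libraries held 35041153 to 60600408 UMIs (unique molecular identifiers, each standing for 1 captured transcript), and 4434, 5970 and 5557 cells of C57BL/6, BM only and BM + Spl passed the filters. Levels are CPM (UMIs of a gene per 1000000 UMIs of the gate), summed over all cells of a gate, and ranges in parentheses are 95% intervals that cover counting error only. A single library per condition allows no test between conditions. The C57BL/6 library differed from the BMT libraries in its software version (Cell Ranger 3.0.2 against 7.0.0), its median mitochondrial share (6.48% against 0.687% and 0.511%) and its summed V beta level (17.7 against 1495 and 1670 CPM). Fos, an immediate-early gene raised by tissue dissociation, stood at 17.6 CPM there and at 1068 and 445 CPM in BM only and BM + Spl. Its levels are therefore given beside those of the BMT libraries without a comparison. BM only and BM + Spl shared 43 barcodes, and without them none of the 25 main log2 ratios left its interval.

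Cells were gated by marker genes at a common depth of 2700 UMIs per cell. The NKT1 gate (Tbx21, Il2rb, Cxcr3, Nkg7 and others) held 1103, 2119 and 741 cells of C57BL/6, BM only and BM + Spl, and the NKT2 gate (Zbtb16, Il17rb, Il4 and others) held 1338, 550 and 946. NKT1 markers summed to 3059, 5539 and 3346 CPM in the NKT1 gate and to 155, 170 and 132 CPM in the NKT2 gate. The label NKT did not hold for every sorted cell. B cell and plasmacytoid dendritic cell gates held 79 and 130 cells of BM only and 59 and 375 of BM + Spl. Regulatory T-like gates, with Foxp3 at 458 and 420 CPM, held 518 and 648 cells. The 46 C57BL/6 cells that met this gate had Foxp3 at 3.60 CPM and were left unnamed. In the NKT1 gate 91.9% of BM only cells with a V beta call used a segment typical of iNKT cells, against 41.3% in BM + Spl. Comparisons in that gate were therefore also made within these V beta segments. The same segments were used by 33.3% and 28.7% of regulatory T-like cells with a call in BM only and BM + Spl. Among cells with both Cd8a and Cd8b1 UMIs the shares were 33.9% and 35.0%. A cell with such a segment is thus not shown to be an iNKT cell.

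The genes lie at chr3:115710433-115715072 (S1pr1, minus strand), chr10:81497747-81500132 (S1pr4, minus), chr8:72319033-72321656 (Klf2, plus), chr13:5861482-5870394 (Klf6, plus) and chr6:129267325-129275436 (Cd69, minus) of GRCm38 in GENCODE vM21, and their identifiers match those of the count tables. UMIs were counted over whole genes, so transcript isoforms were not separated. The RefSeq promoter table held 3 of the 5 genes, S1pr4, Klf2 and Klf6. Those of Klf2 and Klf6 are printed because the pair of factors parted in NKT1-gated cells, with Klf2 lower and Klf6 not lower in BM + Spl. Capitals mark the MEF2 site (searched with any base at its central positions), the GC box GGGCGG and the CCAAT box CCAAT, each searched on both strands. The windows are chr8:72318812-72319032 for Klf2 and chr13:5861239-5861459 for Klf6, both on the plus strand of GRCm38.p6.
Klf2: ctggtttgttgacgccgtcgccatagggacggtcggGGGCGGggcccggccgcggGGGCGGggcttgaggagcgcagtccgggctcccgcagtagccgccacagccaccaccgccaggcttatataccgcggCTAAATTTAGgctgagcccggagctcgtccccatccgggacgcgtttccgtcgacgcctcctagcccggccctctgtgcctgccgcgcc
Klf6: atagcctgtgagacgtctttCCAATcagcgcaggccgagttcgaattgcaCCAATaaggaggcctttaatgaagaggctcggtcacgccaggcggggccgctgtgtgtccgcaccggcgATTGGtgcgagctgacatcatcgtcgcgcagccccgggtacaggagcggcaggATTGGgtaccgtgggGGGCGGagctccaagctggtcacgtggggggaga
The MEF2 letters start 118 bases before the RefSeq start of Klf2, which lies downstream of the GENCODE start given above, and occurred in 938 of 32851 promoter windows of the same length (2.86%). The Klf2 window also held the GC box 2 times and no CCAAT box. The Klf6 window held the CCAAT box 4 times and the GC box 1 time. The CCAAT and GC boxes are common, in 31.1% and 28.7% of all windows, and the S1pr4 window held none of the 3 motifs. A match of letters is not evidence of binding.

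The S1P receptors were considered first. S1pr1 was found at low levels. They ran from 29.3 to 47.4 CPM over the NKT-gated, interferon-gated, cycling and ungated cells of C57BL/6. The ranges were 19.9 to 67.2 CPM in BM only and 26.4 to 69.0 CPM in BM + Spl. Plasmacytoid dendritic cells served as the background, with S1pr1 at 1.10 CPM (0.0279 to 6.14) in BM only and 5.96 CPM (3.59 to 9.31) in BM + Spl. At 2700 UMIs per cell an S1pr1 UMI was seen in 0.769% and 1.07% of these cells. The share was 4.86% and 5.26% in the NKT1 gate and 11.5% and 10.7% in the NKT2 gate. Median depths were 4604 and 4829 UMIs in the NKT1 gate and 8833.5 and 9540.5 in the NKT2 gate before thinning. The levels in these T cell gates thus lay above that background, while a cell without an S1pr1 UMI cannot be read as a cell without S1pr1.

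NKT1-gated cells carried less S1pr1 than NKT2-gated cells in all 3 libraries. The NKT1 level was 29.5 CPM (25.9 to 33.4) and the NKT2 level 39.3 CPM (36.6 to 42.1) in C57BL/6, a log2 ratio of -0.41 (-0.62 to -0.21). In BM only the levels were 19.9 CPM (17.3 to 22.7) and 44.8 CPM (39.3 to 50.9), a log2 ratio of -1.17 (-1.45 to -0.90). In BM + Spl they were 26.4 CPM (21.9 to 31.6) and 42.3 CPM (38.2 to 46.6), a log2 ratio of -0.68 (-0.98 to -0.38). The direction was shared by the libraries and the size was not. In C57BL/6 the value depended on the gate and reached -0.99 with gates set at full depth.

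S1pr4, a second S1P receptor of lymphocytes, ran the opposite way. Its NKT1 and NKT2 levels were 82.5 and 63.6 CPM in C57BL/6, 94.7 and 58.5 CPM in BM only, and 71.1 and 55.6 CPM in BM + Spl. The log2 ratios were 0.37 (0.24 to 0.51), 0.70 (0.51 to 0.88) and 0.35 (0.15 to 0.56). NKT1-gated cells therefore had the lower level of one S1P receptor and the higher level of the other in every library. In BM + Spl the S1pr4 ratio shrank to 0.05 among cells without a Fos UMI. Plasmacytoid dendritic cells, with hardly any S1pr1, had S1pr4 at 108 CPM (87.6 to 132) in BM only and 107 CPM (95.9 to 119) in BM + Spl, the highest of the main gates, with intervals that overlapped those of NKT17-gated cells at 97.1 and 94.8 CPM. B cells had 47.1 CPM (31.0 to 68.5) and 36.9 CPM (22.2 to 57.6), from 27 and 19 UMIs, with intervals that overlapped those of NKT2-gated cells.

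**Figure D1:**
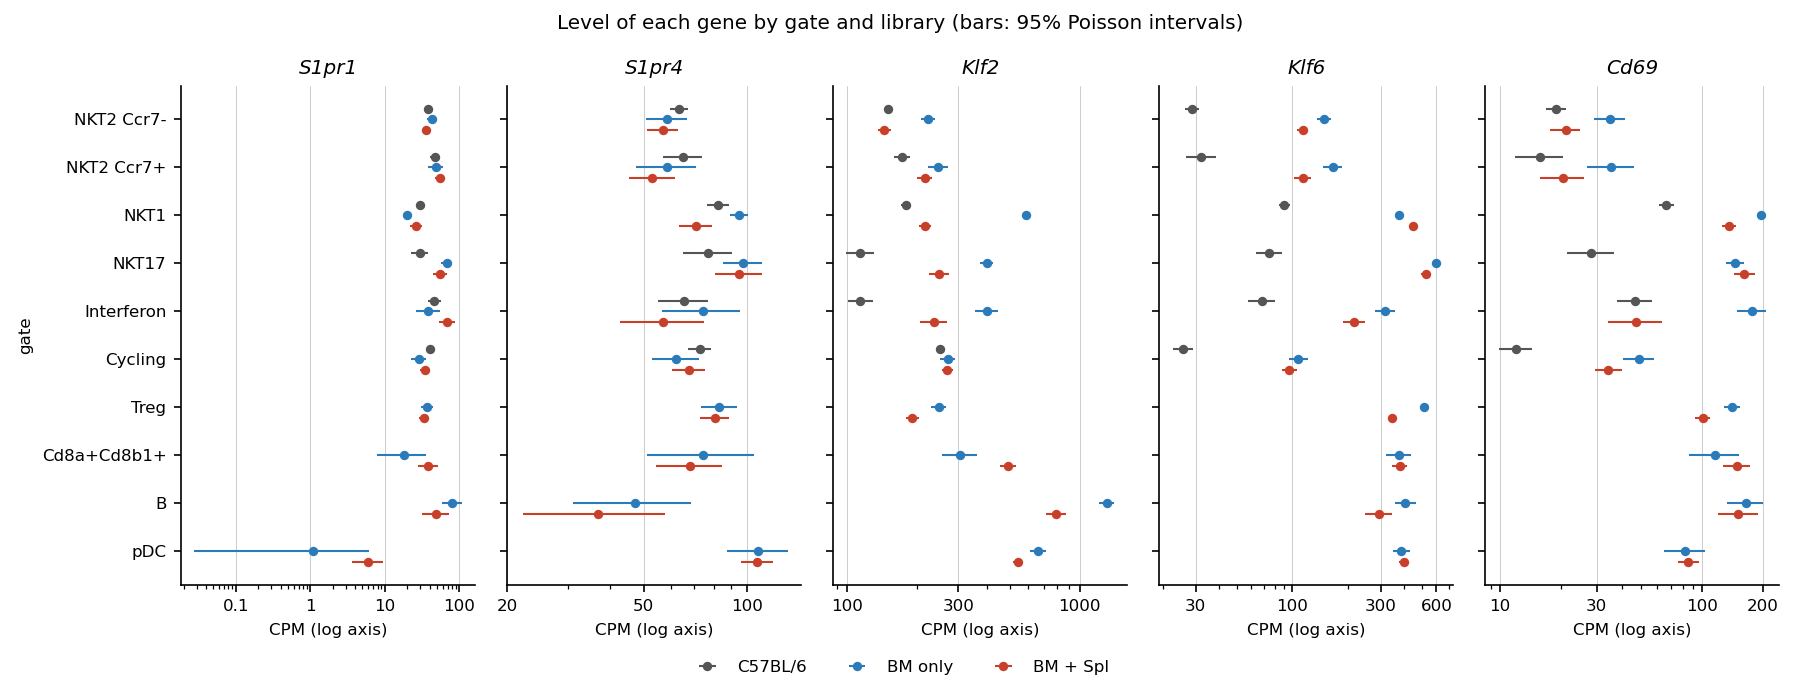
Levels of the 5 genes in CPM (x, logarithmic axes with a separate range for each gene) by gate (y) in C57BL/6 (grey), BM only (blue) and BM + Spl (red), with 95% Poisson intervals as bars. S1pr1 was at 19.9 CPM in NKT1-gated and 44.8 CPM in NKT2-gated cells of BM only, and Klf2 at 588 CPM in NKT1-gated cells of BM only against 216 CPM in BM + Spl.

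NKT2-gated cells were further divided by Ccr7, a chemokine receptor of iNKT precursors. A cell with any Ccr7 UMI at 2700 UMIs per cell was called Ccr7+. Ccr7- cells were not free of the transcript. Ccr7 in Ccr7+ and Ccr7- cells was 154 and 52.6 CPM in C57BL/6, 306 and 90.2 in BM only, and 318 and 96.5 in BM + Spl. The division is thus one of degree. S1pr1 stood at 47.0 CPM (40.2 to 54.7) in Ccr7+ and 37.6 CPM (34.8 to 40.6) in Ccr7- cells of C57BL/6, a log2 ratio of 0.32 (0.07 to 0.57). In BM + Spl it stood at 55.5 CPM (47.6 to 64.4) and 35.9 CPM (31.4 to 40.8), a log2 ratio of 0.63 (0.34 to 0.92). In BM only the levels of 48.2 and 43.3 CPM differed within counting error (0.15, -0.25 to 0.55), so the interval excluded 0 in C57BL/6 and BM + Spl and held it in BM only. Klf2 followed the same order, with log2 ratios of 0.20 (0.07 to 0.32), 0.15 (-0.03 to 0.32) and 0.58 (0.43 to 0.72) in C57BL/6, BM only and BM + Spl. For S1pr4, Klf6 and Cd69 the intervals of the Ccr7 comparison held 0 in all 3 libraries. S1pr1 in BM + Spl was the only member past 1.5-fold, where 0.581% of 5340 genes were, and no member was in C57BL/6 (background 1.35% of 7247 genes) or BM only (0.934% of 3532).

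The transcription factors separated NKT1 from NKT2 cells to differing degrees. Klf6 was at 90.4 CPM (84.1 to 97.1) in NKT1-gated and 29.3 CPM (27.0 to 31.8) in NKT2-gated cells of C57BL/6. The levels were 377 and 154 CPM in BM only and 449 and 113 CPM in BM + Spl. The log2 ratios were 1.62 (1.47 to 1.78), 1.29 (1.18 to 1.40) and 1.99 (1.88 to 2.09), so that Klf6 was more than 1.5-fold higher in NKT1-gated cells of every library. Across gates, NKT17-gated cells led in the BMT libraries at 596 and 527 CPM, and cycling cells were lowest in each library at 25.7, 108 and 96.1 CPM, with an interval that overlapped that of NKT2-gated cells in C57BL/6.

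Klf2 was 179 CPM (170 to 189) in NKT1-gated and 153 CPM (148 to 159) in NKT2-gated cells of C57BL/6, a log2 ratio of 0.23 (0.14 to 0.32). In BM only the same levels were 588 CPM (574 to 603) and 230 CPM (218 to 244), a log2 ratio of 1.35 (1.26 to 1.44). In BM + Spl they were 216 CPM (203 to 230) and 167 CPM (159 to 176), a log2 ratio of 0.37 (0.25 to 0.48). The BM only library thus stood apart, with Klf2 2.55-fold higher in NKT1-gated than in NKT2-gated cells. S1pr1 was lower in those same NKT1-gated cells, so between the NKT1 and NKT2 gates the level of Klf2 and that of S1pr1 did not go together. Among cells without a Fos UMI the log2 ratio was 0.73 in BM only and -0.12 in BM + Spl. In BM + Spl the ratio was -0.01 among cells with an iNKT V beta.

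Cd69 gave the largest differences between the gates. NKT1-gated and NKT2-gated cells had 66.6 CPM (61.2 to 72.3) and 18.4 CPM (16.6 to 20.3) in C57BL/6, 196 CPM (187 to 204) and 35.1 CPM (30.3 to 40.6) in BM only, and 135 CPM (125 to 146) and 20.9 CPM (18.1 to 24.0) in BM + Spl. These are 3.62-fold, 5.57-fold and 6.48-fold differences, with log2 ratios of 1.86 (1.67 to 2.05), 2.48 (2.26 to 2.70) and 2.70 (2.46 to 2.93). At 2700 UMIs a Cd69 UMI was seen in 15.4%, 34.6% and 27.0% of NKT1-gated cells and in 4.78%, 7.82% and 5.81% of NKT2-gated cells. Between these gates Cd69 was thus high where S1pr1 was low.

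Between these gates 21.4% of 8092 genes with at least 200 UMIs differed by 1.5-fold or more in C57BL/6, 27% of 7037 in BM only and 23.4% of 6676 in BM + Spl. Of the 5 genes, 2, 5 and 3 did. By direction, 11.2%, 14.9% and 13.6% of genes were higher and 10.2%, 12.2% and 9.83% lower in NKT1-gated cells, against 2, 4 and 2 members higher and 0, 1 and 1 lower. A tissue retention list of 10 genes, chosen with earlier results of these data known, was set beside them. Of its genes with enough UMIs, 7 of 7 in C57BL/6, 8 of 8 in BM only and 7 of 7 in BM + Spl were higher by 1.5-fold in NKT1-gated cells. Median log2 ratios were 3.30, 3.45 and 2.81 beside 0.01, -0.04 and -0.00 over all genes. UMIs were summed over both gates for this filter, so a gene could pass through the NKT1 gate alone. Itga1 did so in C57BL/6, with 1230 and 18 UMIs in the NKT1 and NKT2 gates. The counts of list genes are therefore descriptive only. Rgs1, a regulator of chemokine receptor signals, stood at 131 and 7.09 CPM in C57BL/6, at 594 and 22.8 CPM in BM only and at 674 and 34.2 CPM in BM + Spl. Itga1, a collagen-binding integrin, stood at 146 and 0.87 CPM in C57BL/6. Of 14 dissociation stress genes, 7 of 11, 13 of 14 and 12 of 13 were also higher in NKT1-gated cells. Among cells without a Fos UMI at 2700 UMIs, the log2 ratios of Cd69 were 1.72, 2.36 and 2.34 and those of Klf6 1.59, 1.27 and 1.51 in C57BL/6, BM only and BM + Spl.

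The egress pathway list (27 genes of S1P synthesis, transport and signalling and of lymphocyte migration) was mixed. Of 19, 19 and 18 genes with enough UMIs, 3, 6 and 3 were higher and 2, 2 and 0 lower by 1.5-fold in NKT1-gated cells of C57BL/6, BM only and BM + Spl, with medians of 0.34, 0.31 and 0.24. Over all genes 11.2%, 14.9% and 13.6% were higher and 10.2%, 12.2% and 9.83% lower. Ltb, the gene of lymphotoxin beta, was higher, at 803 against 233 CPM in C57BL/6, 988 against 227 in BM only and 1093 against 250 in BM + Spl. Ccr7 was lower, at 6.77 against 70.1 CPM in C57BL/6 and 19.4 against 158 CPM in BM only, but 168 against 169 CPM in BM + Spl. Coro1a, an actin regulator required for egress, differed little, at log2 ratios of -0.14, -0.14 and -0.09. Among the other Klf genes, Klf3 was higher in NKT1-gated cells by 2.51, 1.83 and 0.49 on the log2 scale, and Klf13 by 0.57, 0.56 and 0.47.

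**Figure D2:**
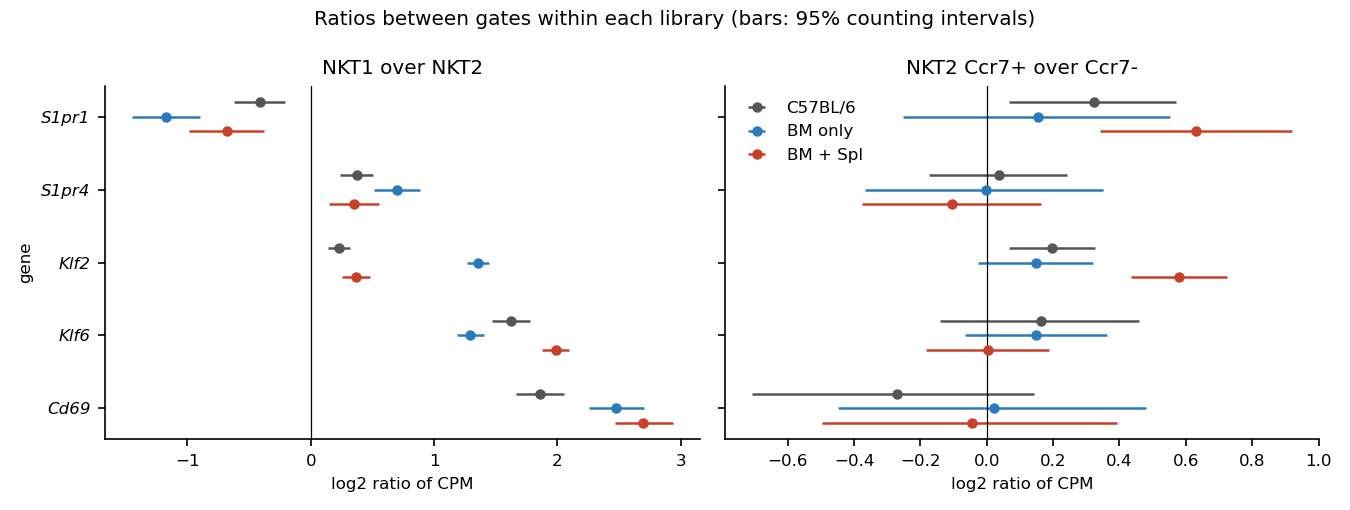
Log2 ratio of CPM (x) for each gene (y) between NKT1-gated and NKT2-gated cells (left) and between Ccr7+ and Ccr7- cells of the NKT2 gate (right), for C57BL/6 (grey), BM only (blue) and BM + Spl (red), with 95% counting intervals. S1pr1 lies below 0 in the left panel in all libraries (-0.41, -1.17 and -0.68), and Cd69 lies above it (1.86, 2.48 and 2.70).

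BM + Spl was next set against BM only, both 9 weeks after BMT. With 1 library per condition, a difference between these libraries cannot be assigned to GVHD. Klf2 showed the largest difference of the 5 genes in NKT1-gated cells. Over all cells Klf2 was 416 CPM (409 to 423) in BM only and 247 CPM (242 to 252) in BM + Spl, a log2 ratio of -0.75 (-0.79 to -0.72). The mix of cells differed, with 42.3% of BM only and 14.9% of BM + Spl cells in the NKT1 gate. The part of this mix in the ratio over all cells was not tested. In NKT1-gated cells Klf2 was 588 CPM in BM only and 216 CPM in BM + Spl, 2.72-fold lower, a log2 ratio of -1.44 (-1.54 to -1.35). Within the NKT1 gate and iNKT V beta segments the levels were 602 CPM (585 to 619) and 164 CPM (144 to 185), 3.68-fold lower with a log2 ratio of -1.88 (-2.07 to -1.70). Among NKT1-gated cells with other V beta segments they were 431 CPM (384 to 481) and 249 CPM (228 to 272), a log2 ratio of -0.79 (-1.0 to -0.58). Lower Klf2 was thus seen in both V beta classes, and the difference was larger among cells with iNKT segments. How many of the cells with iNKT segments were iNKT cells was not tested in either library. Markers of other cell types moved with the difference in the NKT1 gate, from BM only to BM + Spl, as summed levels. Those of regulatory T cells were 78.0 and 244 CPM, of NKT2 cells 154 and 361 CPM, of NKT17 cells 30.1 and 98.2 CPM, and of macrophages and dendritic cells 163 and 398 CPM. Their part in the Klf2 difference was not tested. In sums over a gate, fewer cells with a transcript and less of it per cell cannot be told apart.

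The distribution over single cells moved with the sum. Of NKT1-gated cells thinned to 2700 UMIs, 36.7% had no Klf2 UMI and 26.8% had 3 or more in BM only. In BM + Spl 71.4% had none and 10.5% had 3 or more. In C57BL/6, given beside them, these shares were 75.2% and 5.98%. Klf6 did not follow Klf2 in these cells, since 43.0% of BM only and 37.5% of BM + Spl cells had no Klf6 UMI, and 12.7% and 20.9% had 3 or more.

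**Figure D3:**
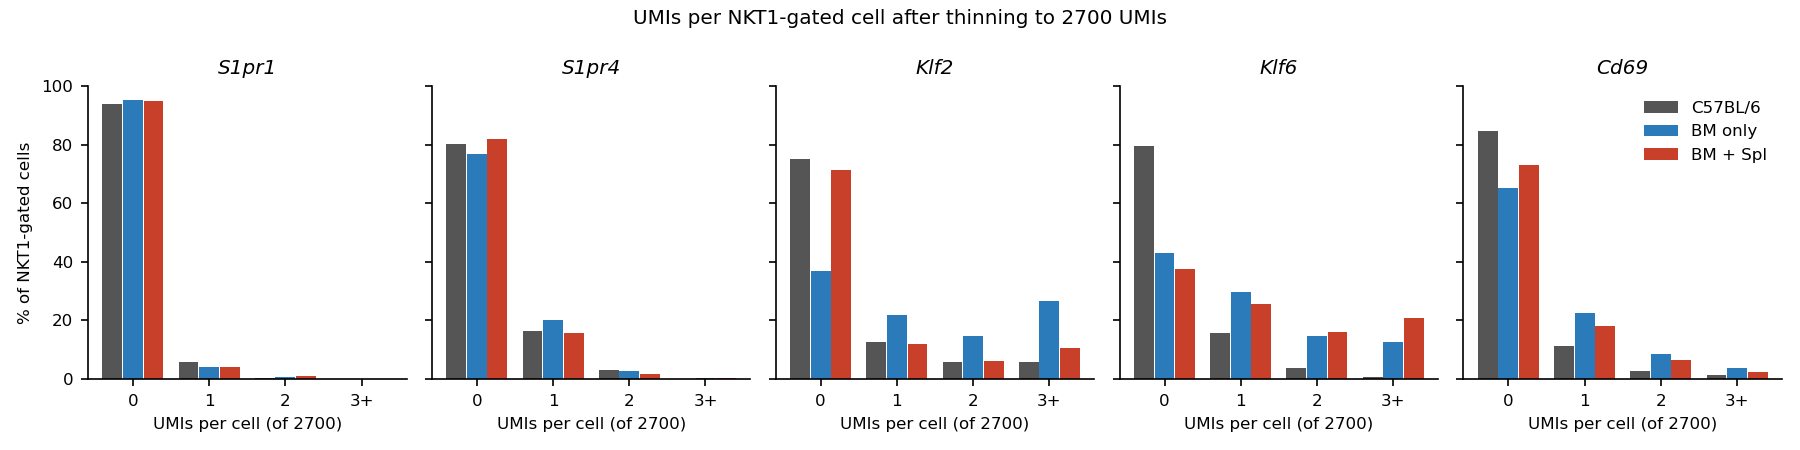
Share of NKT1-gated cells (y, percent) with 0, 1, 2 or at least 3 UMIs (x) of each gene after every cell was thinned to 2700 UMIs, for C57BL/6 (grey), BM only (blue) and BM + Spl (red). The BM only bar for 3 or more Klf2 UMIs reaches 26.8% and that of BM + Spl 10.5%.

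Lower Klf2 was seen in most but not all gates. NKT2-gated cells had 230 CPM in BM only and 167 CPM in BM + Spl (log2 ratio -0.46, -0.57 to -0.35), and the difference was larger in Ccr7- cells (-0.63, -0.77 to -0.49) than in Ccr7+ cells (-0.20, -0.38 to -0.02). NKT17-gated cells had 399 and 249 CPM (-0.68, -0.85 to -0.52). In this gate 67.5% of BM only and 31.5% of BM + Spl cells with a V beta call used iNKT segments. The BM + Spl share lay between the 28.7% of regulatory T-like cells and the 35.0% of cells with both Cd8a and Cd8b1 UMIs. V beta use therefore does not show that the NKT17-gated cells of BM + Spl were iNKT cells. The log2 ratio of Klf2 in this gate was -1.19 (-1.57 to -0.83) within iNKT segments and -0.89 (-1.16 to -0.62) within other segments. Interferon-gated cells, marked by Ifit and related genes, had 398 and 236 CPM (-0.76, -1.01 to -0.50). The interferon gate held different cells in these libraries, with summed NKT1 markers at 3423 and 915 CPM and NKT2 markers at 470 and 833 CPM in BM only and BM + Spl. The part of this shift in the differences of that gate, for Klf2 and for the genes below, was not tested. B cells had 1307 and 789 CPM (-0.73, -0.90 to -0.55), so lower Klf2 was not limited to the T cell gates. In the B cell gate summed B cell markers were 5713 and 4516 CPM in BM only and BM + Spl. Those of regulatory T cells were 5.23 and 91.2 CPM, and those of CD8 T cells 5.23 and 44.6 CPM. The part of this shift in the Klf2 difference of B cells was not tested. Cycling cells had 270 CPM in both libraries (log2 ratio -0.00, -0.14 to 0.13), with Fos at 306 and 189 CPM. The cycling gate also differed in content, with summed NKT1 markers at 739 and 345 CPM and NKT2 markers at 1037 and 1074 CPM. The part of this in its Klf2 ratio was not tested. Cells with both Cd8a and Cd8b1 UMIs, present although CD8+ cells had been depleted, had more Klf2 in BM + Spl, at 305 CPM (256 to 361) in 80 cells and 491 CPM (452 to 533) in 216 cells. Their summed NKT1 markers were 4268 and 6069 CPM in BM only and BM + Spl, and CD8 markers 1931 and 2494 CPM. Markers of macrophages and dendritic cells were 420 and 205 CPM. The part of this shift in their Klf2 difference was not tested. Whether the Klf2 difference of the NKT1 gate is particular to it cannot be tested with 1 library per condition.

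In the NKT1 and NKT2 gates and over all cells, S1pr1 differed less than Klf2 between BM only and BM + Spl. In NKT1-gated cells it was 19.9 CPM in BM only and 26.4 CPM in BM + Spl, a log2 ratio of 0.41 (0.07 to 0.74), and within iNKT V beta segments 18.4 and 27.2 CPM (0.56, 0.04 to 1.06). Among NKT1-gated cells with other V beta segments it was 29.97 and 25.0 CPM (-0.26, -1.01 to 0.53). In NKT2-gated cells it was 44.8 and 42.3 CPM (-0.09, -0.32 to 0.15). Over all cells it was 35.1 and 37.6 CPM (0.10, -0.01 to 0.21). Interferon-gated cells had more S1pr1 in BM + Spl, 38.3 CPM (26.0 to 54.4) against 69.0 CPM (53.0 to 88.3), from 142 and 128 cells whose NKT1 and NKT2 markers differed as given above. In NKT17-gated cells S1pr1 was 67.2 and 55.4 CPM (-0.28, -0.66 to 0.09). Within iNKT V beta segments of that gate it was 54.5 and 50.6 CPM (-0.11, -0.84 to 0.57). With other segments it was lower in BM + Spl, at 99.4 CPM (73.8 to 131) and 53.1 CPM (39.3 to 70.2). S1pr4 was lower in NKT1-gated cells, at 94.7 and 71.1 CPM (-0.41, -0.60 to -0.23), and its intervals held 0 in the NKT2, NKT17, interferon, cycling and regulatory T-like gates.

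Klf6 took different directions in the main gates. It was 377 CPM (365 to 389) in BM only and 449 CPM (430 to 469) in BM + Spl among NKT1-gated cells, a log2 ratio of 0.25 (0.18 to 0.33). Among NKT2-gated cells it was 154 and 113 CPM (-0.44, -0.57 to -0.31), and among regulatory T-like cells 512 and 347 CPM (-0.56, -0.66 to -0.47). The NKT1 value depended on the cells compared. It was 0.04 (-0.09 to 0.17) within iNKT V beta segments, and cells with other segments carried more Klf6 in both libraries (490 against 363 CPM in BM only, 526 against 373 CPM in BM + Spl), and -0.09 among cells without a Fos UMI. Higher Klf6 in NKT1 cells of BM + Spl thus did not hold within iNKT segments.

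Cd69 was lower in BM + Spl in both main gates, at 196 and 135 CPM in NKT1-gated cells (-0.53, -0.66 to -0.40) and at 35.1 and 20.9 CPM in NKT2-gated cells (-0.75, -1.05 to -0.46). Within the NKT1 gate and iNKT V beta segments the log2 ratio was -0.54 (-0.75 to -0.34). The largest difference was in interferon-gated cells, where Cd69 was 176 CPM (148 to 207) in BM only and 47.1 CPM (34.1 to 63.5) in BM + Spl, 3.73-fold lower. The same gate had the higher S1pr1 and the shift from NKT1 to NKT2 markers given above. Cd69 in NKT17-gated cells differed within counting error, at 146 and 162 CPM (0.15, -0.08 to 0.38).

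**Figure D4:**
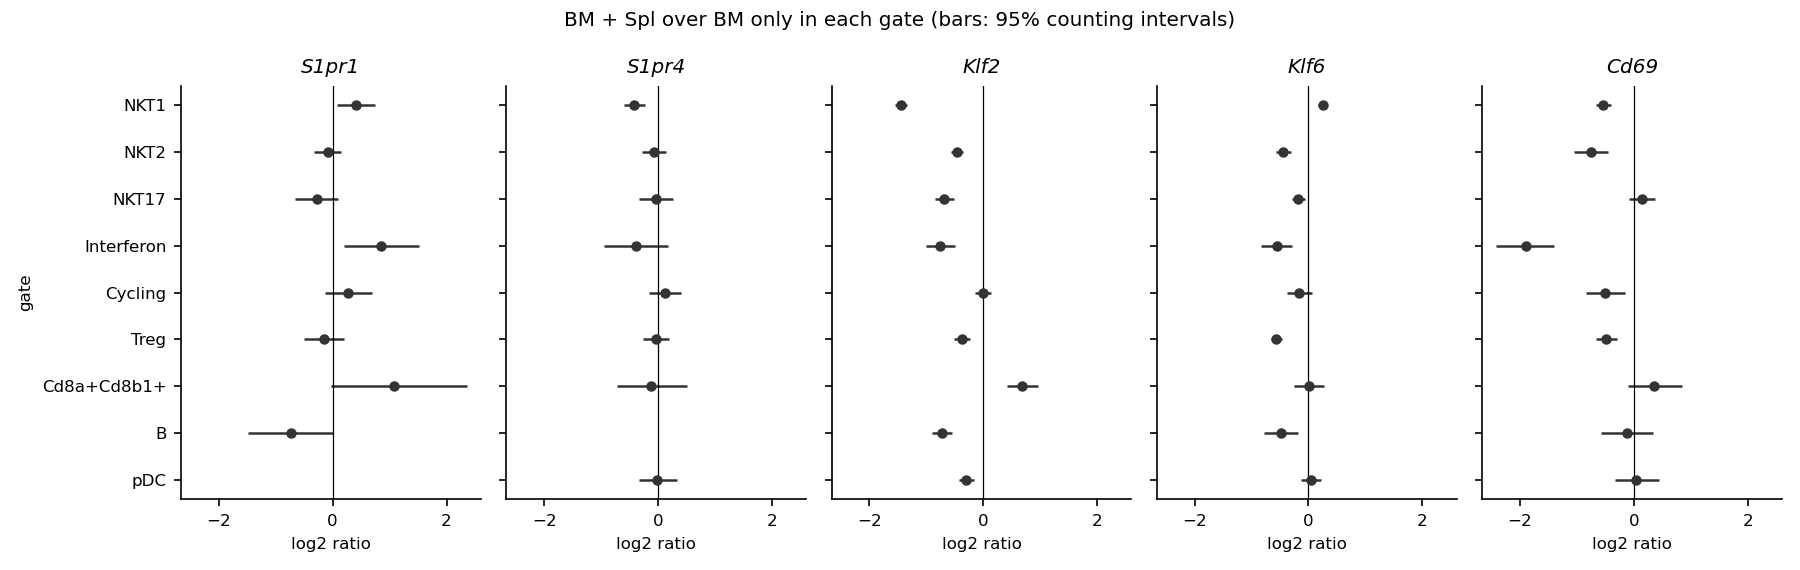
Log2 ratio of BM + Spl over BM only (x) for each gene by gate (y), with 95% counting intervals; ratios from fewer than 50 UMIs (S1pr4 in B cells and S1pr1 in plasmacytoid dendritic cells) are not drawn. Klf2 lies at -1.44 in the NKT1 gate, at 0 in cycling cells and at 0.69 in Cd8a+Cd8b1+ cells, and the interval of S1pr1 in the NKT2 gate holds 0.

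Past 1.5-fold in NKT1-gated cells lay Klf2 alone of the 5 genes, with 16.6% of 6955 genes past that size (8.44% higher and 8.2% lower). In NKT2-gated cells Cd69 alone did, with 1.05% of 6689 genes (0.448% higher and 0.598% lower). Over all cells, whose mix differed as given above, Klf2 and Cd69 did, with 9.79% of 10536. In the NKT1 gate 2 of 19 egress pathway genes were higher, among them Ccr7 (19.4 and 168 CPM in BM only and BM + Spl), and Il7r, the interleukin-7 receptor, was lower (762 and 395 CPM). Of 6 other Klf genes 2 were lower. Klf3, a repressor of the same family, was lower, at 110 and 27.3 CPM, and so was Klf10, at 41.0 and 17.8 CPM, while Klf13 was 179 and 182 CPM. Of 8 retention genes 3 were lower and 1 higher. Itga1 stood at 109 and 30.4 CPM and Zfp683, the gene of the residency factor Hobit, at 131 and 41.5 CPM, while Rgs1 was 594 and 674 CPM. The higher retention gene was Bhlhe40, at 261 and 643 CPM. In the NKT2 gate no egress pathway gene of 18 was past 1.5-fold, 1 of 4 other Klf genes (Klf3, 30.8 and 19.4 CPM) was lower, and of 5 retention genes Bhlhe40 was higher (8.93 and 27.8 CPM) and Itgae lower (39.7 and 26.4 CPM).

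Genes of the dissociation stress list moved with these differences. In NKT1-gated cells 8 of 14 such genes were lower and 1 higher in BM + Spl (median log2 ratio -0.63), and in NKT2-gated cells 5 of 13 were lower (-0.35). The heat shock gene Hspa1a was 180 and 19.5 CPM in NKT1-gated cells of BM only and BM + Spl, and Fos was 1357 and 721 CPM. Nr4a1 was the higher gene, at 70.3 and 208 CPM. Among cells without a Fos UMI at 2700 UMIs, the Klf2 ratio of NKT1-gated cells was -1.34 and that of Cd69 -1.04, beside -1.44 and -0.53 over all cells of the gate. That choice left out most cells of the gate. A Fos UMI was seen in 84.0% and 76.3% of BM only cells with and without Klf2, and in 71.2% and 66.2% in BM + Spl. At this depth a cell without a Fos UMI is not shown to lack Fos. Beyond these values, the part of dissociation in the differences was not tested.

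Finally, the genes were read within single cells, all at 2700 UMIs. Cells with an S1pr1 UMI more often had a Klf2 UMI in the NKT1 gate of each library. The shares were 43.5% (31.6% to 56.0%) of 69 cells with and 23.5% (20.9% to 26.2%) of 1034 cells without S1pr1 in C57BL/6. They were 79.6% (70.5% to 86.9%) of 103 and 62.5% (60.3% to 64.6%) of 2016 in BM only, and 71.8% (55.1% to 85.0%) of 39 and 26.2% (23.0% to 29.6%) of 702 in BM + Spl. NKT1-gated cells of BM + Spl in which S1pr1 was seen thus had a Klf2 share whose interval overlapped that of BM only. The intervals of cells in which S1pr1 was not seen lay apart (26.2% and 62.5%). In BM + Spl 22 of the 39 cells with S1pr1 had other than iNKT V beta segments, with Klf2 in 77.3% (54.6% to 92.2%). Those with iNKT segments were too few for a share to be given. In BM only the shares within iNKT segments were 78.1% of 73 cells with and 62.7% of 1591 cells without S1pr1. The BM + Spl share is thus not one of iNKT cells. NKT17-gated cells, not divided by V beta here, showed the same order. The shares were 70.5% (54.8% to 83.2%) of 44 and 27.4% (22.1% to 33.2%) of 263 in BM + Spl. They were 72.2% (60.4% to 82.1%) of 72 and 51.0% (45.6% to 56.3%) of 351 in BM only. In the NKT2 gate the intervals parted in C57BL/6 only, at 38.7% (30.8% to 47.0%) and 24.7% (22.3% to 27.3%), and overlapped at 49.2% and 44.4% in BM only and at 33.7% and 31.6% in BM + Spl.

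For Cd69 the intervals of cells with and without S1pr1 overlapped in both main gates. In NKT1-gated cells a Cd69 UMI was seen in 8.70% (3.26% to 18.0%) of cells with and 15.9% (13.7% to 18.2%) of cells without S1pr1 in C57BL/6, in 28.2% (19.7% to 37.9%) and 35.0% (32.9% to 37.1%) in BM only, and in 30.8% (17.0% to 47.6%) and 26.8% (23.5% to 30.2%) in BM + Spl. Over all cells of C57BL/6 the intervals parted, at 4.24% (2.57% to 6.54%) of cells with and 7.98% (7.16% to 8.87%) of cells without S1pr1. Over all cells of the BMT libraries they overlapped. The shares with and without S1pr1 were 25.7% and 26.8% in BM only, and 19.7% and 18.7% in BM + Spl. All cells mix the gates, and NKT1-gated cells had more Cd69 and less S1pr1 than NKT2-gated cells. The part of this mix in the C57BL/6 difference was not tested. In NKT17-gated cells the Cd69 share was higher with S1pr1, with overlapping intervals. It was 37.5% (26.4% to 49.7%) with and 27.4% (22.8% to 32.3%) without S1pr1 in BM only. In BM + Spl it was 36.4% (22.4% to 52.2%) and 27.8% (22.4% to 33.6%). The NKT1 gate held only 39 to 103 S1pr1+ cells, and the size of difference that could be seen at this depth was not computed. These are RNA counts, and the loss of S1P1 protein from the membrane that CD69 brings about is outside what they measure.

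**Figure D5:**
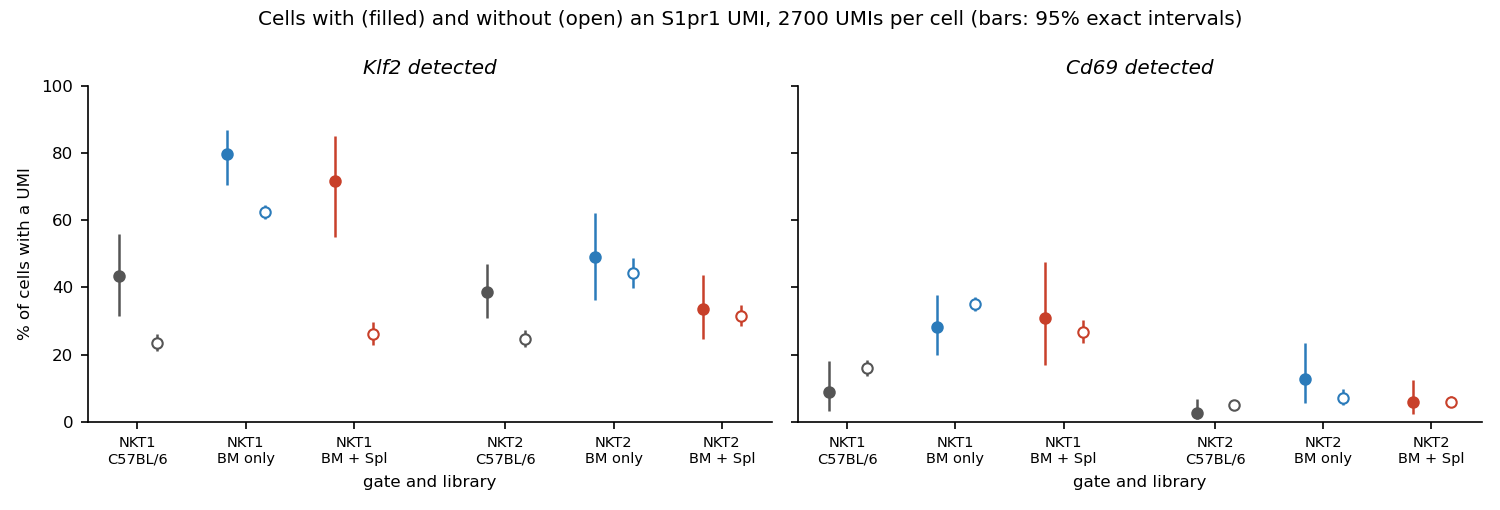
Share of cells (y, percent) with a Klf2 UMI (left) or a Cd69 UMI (right) among cells with (filled) and without (open) an S1pr1 UMI, by gate and library (x), at 2700 UMIs per cell and with 95% Clopper-Pearson intervals. In the NKT1 gate of BM + Spl Klf2 was seen in 71.8% of S1pr1+ and 26.2% of S1pr1- cells, while the Cd69 intervals overlap in each pair shown.

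Over the 35 sums of gate and library, centred within each library, the pattern of Cd69 was close to that of Klf6 (Pearson r = 0.86 over the libraries, and 0.88, 0.78 and 0.91 over the 9, 13 and 13 gates of C57BL/6, BM only and BM + Spl). S1pr1 and S1pr4 were opposed (r = -0.56, and -0.55, -0.59 and -0.55 within C57BL/6, BM only and BM + Spl). Klf2 and S1pr1 were at r = -0.23, and the libraries did not share its sign (0.12, -0.19 and -0.32). The BMT gates include plasmacytoid dendritic cells, with S1pr1 from 1 UMI in BM only and 19 UMIs in BM + Spl. Among 6665 genes, those most like Cd69 were Rgs1 (0.93), H2-Q6 (0.92) and H2-K1 (0.92), and those most like Klf6 were Pbxip1 (0.91), Rabac1 (0.91) and Zc3h12a (0.91). Fas (0.85), Sh3bp5 (0.84) and Acp5 (0.82) were most like S1pr1, Selplg (0.88), Iqgap2 (0.85) and Med10 (0.85) most like S1pr4, and Apoe (0.82), Pkig (0.78) and Rasa3 (0.77) most like Klf2. Fos itself correlated with Klf6 at 0.88 and with Cd69 at 0.75, and with Klf2 and S1pr1 at 0.40 and -0.38. Gates of a library share its depth and handling and some gates are of other cell types, so these values describe the patterns only.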

How the data were processed

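The authors sorted pooled thymic cells, built 10x libraries (the labels name 3'/5' kits without assigning them) and counted UMIs per gene on mm10 with Cell Ranger, whose version in the headers (3.0.2 for C57BL/6, 7.0.0 for both BMT libraries) is not the one in the paper. The deposited counts were not normalized. Cells were kept at more than 200 but fewer than 6000 genes and a mitochondrial share below 10%. The cell numbers the study states differ from those these filters leave here, being higher for C57BL/6 and lower for both BMT libraries.

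Cells were thinned to 2700 UMIs, which left out 15, 959 and 568 cells of C57BL/6, BM only and BM + Spl, and gated by at least 2 different markers (3 for cycling and interferon), thresholds set with the data at hand. Raw UMIs of a gate were summed. Poisson, Clopper-Pearson and conditional binomial intervals (95%) were exact. Ratios over all genes used at least 200 UMIs and a size of 1.5-fold. V beta calls needed 80% of V beta UMIs. Doublets were kept. With 1 library per condition there was no test. Named genes were the 5 members, up to 4 per list with the most UMIs or the largest ratio, and the 3 most similar genes (log2(CPM + 1), at least 2000 UMIs, gates of at least 30 cells). Members and lists were chosen with earlier results of these data known. Sequences are from RefSeq. Python 3.11.15, numpy 2.4.6, scipy and, for TMM scaling, edgeR were used, and the calculations were tested on simulated data. The values of 1 gene of the egress pathway list are not reported here.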

Additional observations from a re-analysis of the deposited data

Results flagged for a closer look

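Klf2 stood out for its direction in Cd8a+Cd8b1+ cells: it was higher in BM + Spl than in BM only by 0.69 (0.42 to 0.97) on the log2 scale, while it was lower beyond counting error in the NKT1, NKT2, NKT17, interferon, regulatory T-like, B and plasmacytoid dendritic cell gates. The Cd8a+Cd8b1+ cells of these libraries also differed in their summed markers, as given above. Klf6 was higher by 0.25 in NKT1-gated cells and lower beyond counting error in the NKT2, NKT17, interferon, regulatory T-like and B cell gates. The NKT1 value was 0.04 (-0.09 to 0.17) within iNKT V beta segments, 0.10 (-0.07 to 0.28) within other segments and -0.09 among cells without a Fos UMI. Neither difference between gates was tested, since each condition has 1 library.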

How the results depend on the processing

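The 25 log2 ratios of the 5 genes (NKT1 over NKT2 in each library, and BM + Spl over BM only in the NKT1 and NKT2 gates) were recomputed under 11 settings. Of 270 values 222 stayed within the counting interval, 45 moved outside it and 3, of ratios whose interval excluded 0, changed sign. S1pr4 of BM + Spl over BM only in the NKT2 gate, whose interval held 0, also crossed it, to 0.018 with gates at full depth. Leaving out the filters on gene number and mitochondrial share, leaving out mitochondrial and ribosomal genes, and leaving out shared barcodes moved none. Without those filters the cut at 2700 UMIs was kept. Few cells of the BMT libraries could return, since 5970 of 5986 and 5557 of 5573 barcodes had passed the filters. For NKT1 over NKT2, gates at full depth gave S1pr1 -0.99, Klf2 0.45 and Cd69 2.15 in C57BL/6, Klf2 1.49 and Cd69 2.79 in BM only, and Klf2 0.72, Klf6 2.32 and Cd69 3.07 in BM + Spl. With 1 more marker S1pr1 was -0.74 and Cd69 2.09 in C57BL/6, S1pr4 0.91 in BM only and Klf6 2.25 in BM + Spl. Gating by the highest list score gave S1pr1 -0.67, Klf2 0.48 and Cd69 2.11 in C57BL/6, and Klf2 0.54, Klf6 1.83 and Cd69 2.43 in BM + Spl. Means over cells gave S1pr1 -0.79 in C57BL/6 and Klf2 0.57 and Klf6 2.11 in BM + Spl. TMM scaling gave Klf2 1.44 in BM only, and leaving out the 6% deepest cells Klf6 1.13. Cells with an iNKT V beta gave Klf2 -0.0096, a change of sign, and Klf6 1.80 in BM + Spl. Cells without a Fos UMI, a setting chosen after seeing the data (as was leaving out shared barcodes), gave Klf2 0.10 in C57BL/6, S1pr1 -1.59 and Klf2 0.73 in BM only, and S1pr4 0.053, Klf2 -0.12 (a change of sign), Klf6 1.51 and Cd69 2.34 in BM + Spl.

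For BM + Spl over BM only in the NKT1 gate, Klf2 was -1.34 (full depth), -1.55 (1 more marker), -1.55 (TMM), -1.22 (means over cells), -1.88 (iNKT V beta) and -1.34 (no Fos UMI). Klf6 was 0.49 (full depth), 0.15 (TMM), 0.51 (means over cells), 0.040 (iNKT V beta) and -0.095 (no Fos UMI, a change of sign). Cd69 was -0.39 over cell means and -1.04 without a Fos UMI, where S1pr4 was -0.62. In the NKT2 gate Klf6 was -0.58 with 1 more marker and Klf2 -0.58 by list score. TMM moved all genes of the NKT1 comparison by -0.11. The causes were not tested. Genes past the fold numbered 1730, 1903 and 1565 for NKT1 over NKT2 in C57BL/6, BM only and BM + Spl, and 1157 and 70 for BM + Spl over BM only in the NKT1 and NKT2 gates. With at least 50 UMIs they numbered 2665, 3167, 2871, 2249 and 404, and at 2-fold 688, 881, 690, 476 and 19.

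No paired analysis was possible because each condition has 1 library, and for the same reason no replicate was left out. Intervals cover counting error only, and differences between mice, handling and condition cannot be told apart. At 2700 UMIs per cell most cells show no S1pr1 UMI, so its absence from a cell was not detectable.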
